A study of Lathyrus oleraceus with 4 samples.

Results

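In flower buds of pea, 226 of 127533 assembled genes stood higher after a heat episode in the cultivar Arka Chaitra and kept nearly the same level in the cultivar Matar Ageta. The species, Pisum sativum or Lathyrus oleraceus, was sampled as unopened buds before anthesis, when the flower opens. The heated Arka Chaitra plants, from a cultivar described as heat-tolerant, were exposed to 35 °C for 2 h, and the Arka Chaitra controls stayed at day and night temperatures of 22 °C and 16 °C. The heated and control plants of Matar Ageta, described as susceptible, had the same regimes. Each of these 4 groups was a single sample, so no difference below has a replicate check and no p-value is given.

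Every library appeared as 2 numbered columns of values, and no label says whether these were separate plants, preparations or sequencing runs. They were therefore read as 2 measurements of 1 sample. The columns held between 10411488 and 21625288 estimated counts. The genotype tag matched the title in 0 of 4 samples, because tag and title name opposite cultivars. The cultivars are named here by the titles, so each cultivar name stands for the libraries titled with it. By the tags, the cultivar with the raised genes would be Matar Ageta, the one described as susceptible. Which label is right is not known. The tissue could not be checked against marker genes, because 0 of 127533 identifiers matched the 65673 genes of the pea RefSeq table and the files do not pair them with names.

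A brief rise in temperature activates heat shock transcription factors in plants, which switch on genes for chaperones, the proteins that keep other proteins folded. Developing pollen and the tapetum, the layer of cells that feeds it, are among the most heat-sensitive tissues of a flower. Genes that a tolerant cultivar raises and a susceptible cultivar leaves alone are often listed as candidates for tolerance. Which of the 226 genes belong to any of these classes is not known from the identifiers.

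The genes were chosen by their values in all 8 columns of the deposited scaled counts, which are counts multiplied by 1 factor per column. In Arka Chaitra the lower heat column had to reach 5, and that column plus 1 had to be at least 2 times the higher control column plus 1. In Matar Ageta all 4 columns had to reach 2, and the mean of the heat columns divided by the mean of the control columns had to lie between 0.67 and 1.5. The Arka Chaitra criterion was met by 1175 genes, which is 5.53% of the 21264 genes with both heat columns at 5 or more. Of these 1175 genes, 789 fell below 2 in at least 1 Matar Ageta column, and 197 of the 789 were listed at 0 in all 4. The remaining 386 divided into 226 that were steady in Matar Ageta, 99 with a ratio above 1.5 and 61 with a ratio below 0.67. The steady share was 58.5% of the 386. It was higher, at 77.8%, among all 24092 genes that reached 2 in all 4 Matar Ageta columns, at any level in Arka Chaitra. The 226 were thus 19.2% of all genes that met the Arka Chaitra criterion. Among all 21264 genes with both heat columns at 5 or more, a larger share, 11225, met the Matar Ageta criterion. The 226 were 2.01% of these 11225 genes, which met every criterion except the fold in Arka Chaitra. The other 10999 of these 11225 genes are called the comparison genes here. Since the values of heat and control chose the genes, these counts and all heat-to-control ratios below are descriptions. In whole buds, fewer cells of a type and less RNA per cell cannot be told apart.

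The count depends on taking the lower heat column against the higher control column. With the means of the columns in their place, 482 genes met the rule. Without the first control column of Arka Chaitra 479 genes met it, without the second control column 516, and without the second heat column 350.

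At the thresholds there was no gap in the values. The 3 genes just inside the 2-fold limit had ratios of 2.01, 2.01 and 2.02, and the 3 just outside had 1.99, 1.98 and 1.98. The lowest heat columns inside were 5.04, 5.07 and 5.13, and the nearest outside were 4.85, 4.85 and 4.81. The Matar Ageta ratios nearest to the upper limit were 1.498, 1.495 and 1.494 inside and 1.509, 1.510 and 1.533 outside. Near the lower limit they were 0.671, 0.676 and 0.684 inside and 0.660, 0.658 and 0.647 outside.

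The median scaled count of the 226 genes was 17.0 and 17.97 in the heat columns of Arka Chaitra, against 2.58 and 2.67 in its control columns. In Matar Ageta the medians were 18.7 and 17.2 in the heat columns and 17.1 and 18.8 in the control columns. The control library of Arka Chaitra was thus the low one, and the other 3 libraries had nearly the same median. The authors scaled each cultivar separately, and with factors common to all columns the medians of the library means were 18.2 CPM (counts scaled to library size) after heat and 2.58 CPM in the control of Arka Chaitra, against 17.2 and 17.9 CPM in Matar Ageta. As a share of all estimated counts, the 226 genes took 1.20% and 1.21% of the Arka Chaitra heat columns and 0.201% and 0.267% of the control columns. They took 1.23% and 1.11% of the Matar Ageta heat columns and 1.17% and 1.30% of its control columns.

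**Figure D1:**
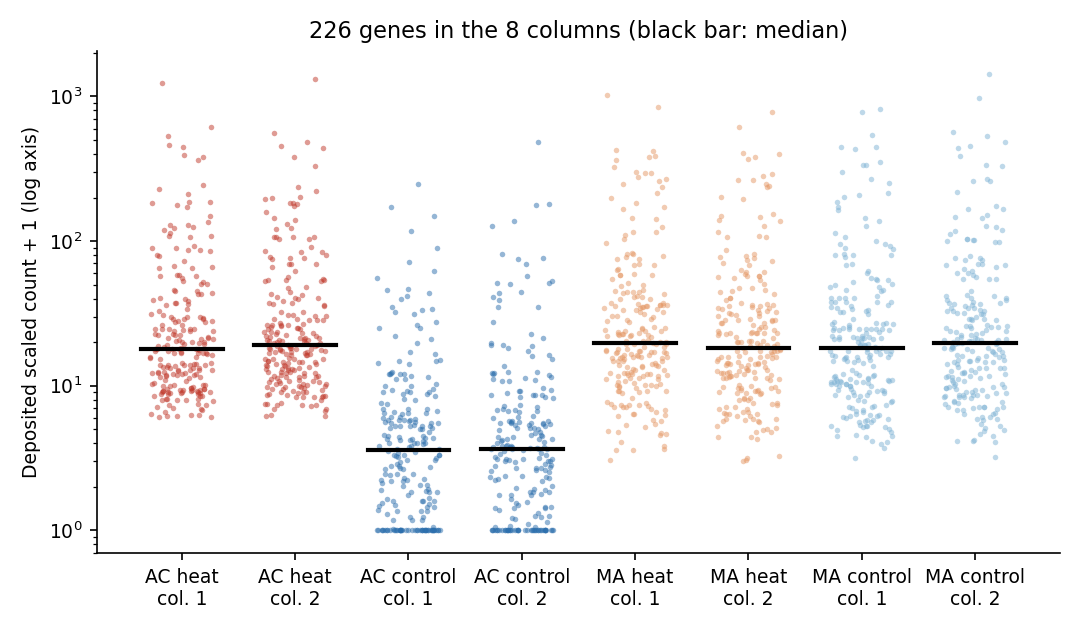
Scaled counts plus 1 (log axis) of the 226 genes in the 8 columns, 2 per library, with Arka Chaitra (AC) on the left and Matar Ageta (MA) on the right; each point is a gene and each black bar a median. The AC control medians of 2.58 and 2.67 (before adding 1) lie below the other 6 columns, whose medians are between 17.0 and 18.8.

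The gene with the largest ratio was TRINITY_GG_66468_c0_g1, whose product is not known. Its scaled counts were 444 and 453 in the heat columns of Arka Chaitra, against 0.298 and 0 in the control columns. In Matar Ageta it had 364 and 407 in the heat columns and 537 and 569.6 in the control columns. The Arka Chaitra control was therefore near 0, while the other 3 libraries held 364 or more in each column. The lower heat column plus 1 was 343 times the higher control column plus 1. From the estimated counts, 10486 after heat against 3 in the control, the ratio was 3585 with an exact 95% counting interval of 1226 to 17387. In Matar Ageta, 12332 counts after heat against 16773 in the control gave a ratio of 0.682 (0.666 to 0.698). These intervals cover counting error only.

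The next genes by the same ratio had the same shape and are given by rank. The second had 187 and 196 in the Arka Chaitra heat columns, against 0 and 0 in the control columns. Its Matar Ageta values were 248 and 238 after heat and 444 and 167 in the control. Both Arka Chaitra control columns were empty, and the Matar Ageta control columns spanned both heat columns. The third had 227 and 158 in the Arka Chaitra heat columns, against 0 and 0 in the control columns. In Matar Ageta its heat columns were far apart, at 266 and 23.5, with 94.4 and 174 in the control columns. The steadiness of that gene in Matar Ageta is thus a mean over unequal columns. The fourth had 149 and 143 in the Arka Chaitra heat columns, against 0 and 0.260 in the control columns, and 184 and 193 after heat against 214 and 151 in the control of Matar Ageta. The sixth had 177 and 179 in the Arka Chaitra heat columns, against 2.04 and 1.71 in the control columns. It had 417 and 383 in the Matar Ageta heat columns, against 443 and 531 in the control columns, so its heated Arka Chaitra level stayed below every Matar Ageta column.

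**Figure D2:**
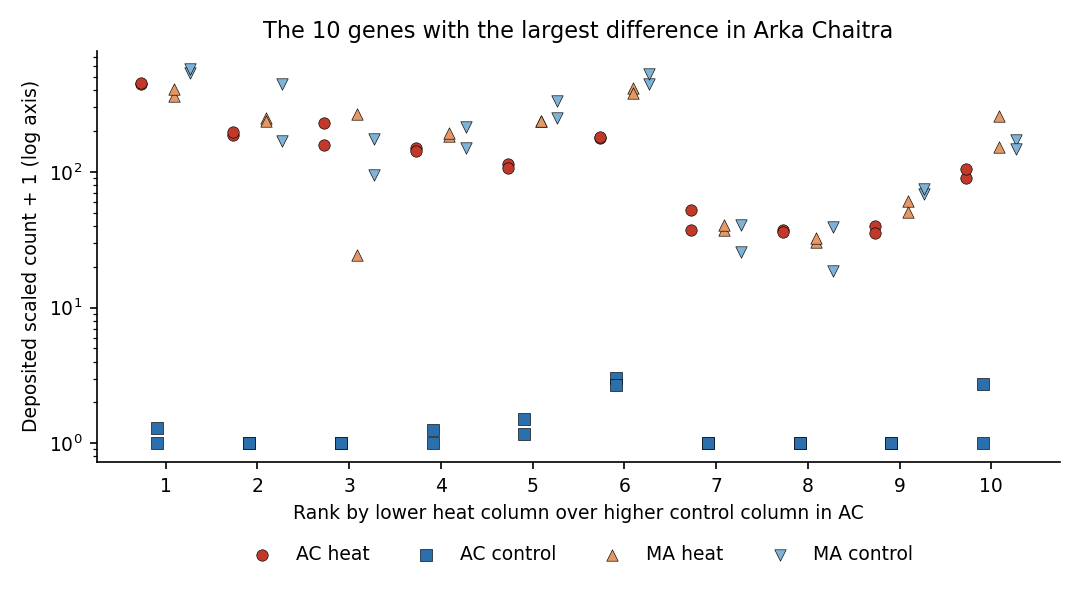
Scaled counts plus 1 (log axis) of the 10 genes with the largest ratio of the lower heat column to the higher control column in Arka Chaitra (AC), by rank, with both columns of each library and Matar Ageta (MA) beside them. The AC control squares lie at the bottom for all 10 genes, and for the first gene the AC heat columns (444 and 453) stand between the MA heat and MA control columns.

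The gene with the highest level after heat was TRINITY_GG_24382_c0_g1, again without a known product. It had scaled counts of 1246 and 1311 in the heat columns of Arka Chaitra, against 249 and 485 in the control columns. In Matar Ageta it had 428 and 615 in the heat columns and 336 and 455 in the control columns. Its heated Arka Chaitra columns were the highest of the 8, and its control columns overlapped with those of Matar Ageta. From 29860 estimated counts after heat against 8918 in the control, the ratio in Arka Chaitra was 3.43 (exact 95% counting interval 3.35 to 3.52). In Matar Ageta it was 1.246 (1.22 to 1.28). The gene second in level had 529.8 and 555 in the Arka Chaitra heat columns, against 117 and 179 in the control columns. It had 840.4 and 779.9 in the Matar Ageta heat columns, against 819 and 1438 in the control columns.

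Over the 226 genes, the ratio of the lower heat column to the higher control column, each plus 1, ran from 2.01 to 343 with a median of 3.39. It lay between 2 and 3 for 100 genes, between 3 and 5 for 50, between 5 and 10 for 37 and at 10 or above for 39. With the means of the columns, each plus 1, the median ratio was 4.57. The level after heat was mostly moderate: the lower heat column was under 10 for 63 genes, at least 50 for 45 and at least 100 for 27. Both control columns were listed at 0 for 31 genes, and 1 of the 2 was at 0 for another 29. Summed over both control columns, 39 genes had 3 estimated counts or fewer, and a ratio to so few counts has a wide counting interval.

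The heat columns of Arka Chaitra were about as close to each other in these genes as in the comparison genes. At least 2-fold apart after adding 1 were 3 of 226 genes (1.33%), against 138 of 10999 comparison genes (1.255%). The rule uses the lower heat column, which works against genes with uneven heat columns. The control columns were at least 2-fold apart for 35 genes (15.5%), against 557 comparison genes (5.06%). The median control level was 2.58 CPM in the members and 17.4 CPM in the comparison genes, and the part of this difference was not tested. In Matar Ageta the control columns were that far apart for 14.2% of members, against 5.03%. Its heat columns were so for 15.9%, against 6.68%. The widest gap was 0 and 80.3 in the control columns of a gene with 618 and 439.7 in the heat columns.

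In Matar Ageta the mean ratio of heat to control had a median of 1.02 over the 226 genes and ran from 0.671 to 1.498. Its middle values, from the lower to the upper quartile, were 0.870 to 1.20. For the comparison genes, which passed the same limits, the median was 0.974 and the quartiles were 0.847 and 1.13. The ratio was above 1 for 121 of the 226 genes (53.5%), against 44.9% of the comparison genes.

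**Figure D3:**
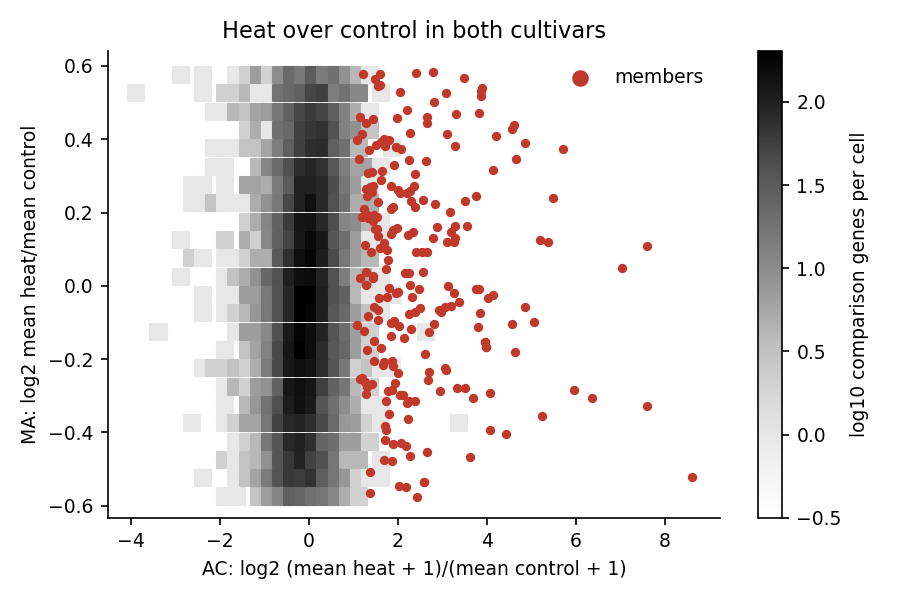
Ratio of heat to control (log2) in Arka Chaitra (AC, horizontal, means of the columns plus 1) and in Matar Ageta (MA, vertical, means of the columns); red points are the 226 members and grey cells count the 10999 comparison genes. The members begin at an AC ratio of 2.11 and are spread over the whole allowed MA range, from 0.671 to 1.498, which the rule sets on both axes.

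Steadiness in the mean did not always hold in the single columns of Matar Ageta. All 4 columns lay within 2-fold of each other for 153 of the 226 genes (67.7%), against 83.8% of the comparison genes. They were over 4-fold apart for 14 genes (6.19%), against 165 of the 10999 comparison genes. The widest case had 197 and 8.21 in the heat columns and 44.5 and 123 in the control columns, with a mean ratio of 1.22. The narrowest had 27.5 and 27.3 in the heat columns and 26.1 and 27.4 in the control columns. The heat columns were both above both control columns for 32 genes (14.2%), against 15.7% of the comparison genes, and both below for 30 genes (13.3%), against 19.3%. Neither share exceeded that of the comparison genes. When a Matar Ageta column was left out, 171 to 185 of the 226 genes still met the rule.

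Levels were compared between the cultivars on CPM with the factors common to all columns, after adding 1. The rule set no limit on this ratio. It did choose genes with a low Arka Chaitra control beside a steady Matar Ageta, and the comparison genes are those that missed the fold, so the differences from the comparison genes in this paragraph are descriptions and follow in part from the choice. After heat, Arka Chaitra stood at a median of 1.07 times the level of Matar Ageta over the 226 genes, and 167 genes (73.9%) were within 2-fold of it. At least 2-fold above Matar Ageta were 31 genes (13.7%), against 3.36% of the comparison genes. At least 2-fold below were 28 genes (12.4%), against 6.74%. In the control libraries the median was 0.230 times Matar Ageta. There 179 genes (79.2%) were at least 2-fold lower in Arka Chaitra, against 5.28% of the comparison genes, and 4 were at least 2-fold higher, against 2.71%. At least 8-fold lower were 73 genes (32.3%), against 0.318% of the comparison genes. Arka Chaitra was closer to Matar Ageta after heat than in the control for 186 genes (82.3%), against 44.4% of the comparison genes. With DESeq2 size factors the medians were 1.20 after heat and 0.2496 in the control.

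**Figure D4:**
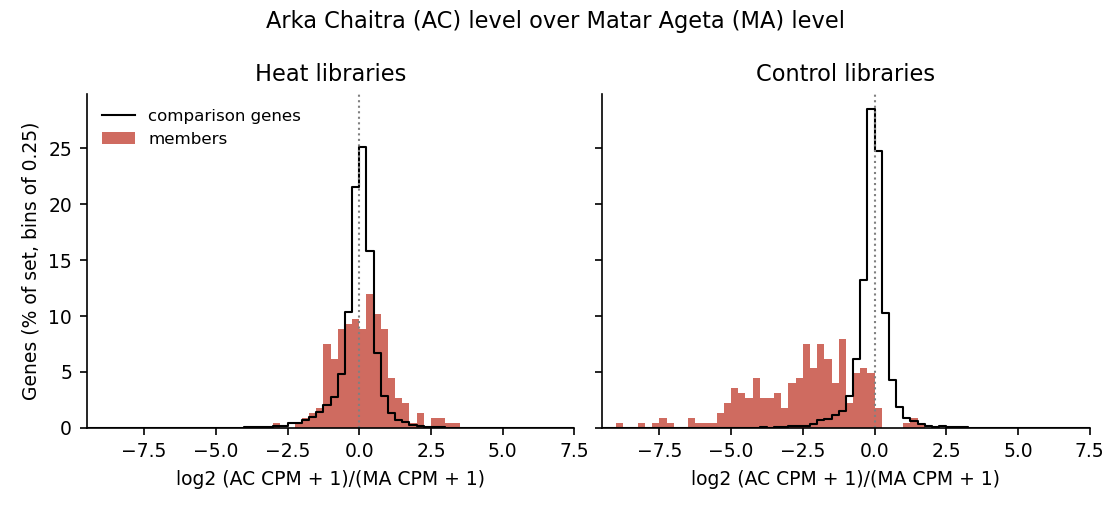
Level in Arka Chaitra (AC) over that in Matar Ageta (MA), as log2 of CPM plus 1, in the heat libraries (left) and control libraries (right); red bars are the 226 members and black lines the 10999 comparison genes, each as a percent of its set. The members centre near 0 after heat (median ratio 1.07) and lie to the left of it in the controls (median ratio 0.230).

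Read over all 8 columns, both Arka Chaitra control columns were below the other 6 for 188 of the 226 genes (83.2%), against 8.66% of the comparison genes. Both Arka Chaitra heat columns were above the other 6 for 77 genes (34.1%), against 12.8%. Both shares are in part set by the rule, which places the control columns below the heat columns of the same cultivar. The gene that stood furthest above Matar Ageta had 60.1 and 66.9 CPM in the heat columns of Arka Chaitra, against 5.78 and 4.63 CPM in the heat columns of Matar Ageta. Its control columns were at 13.2 and 11.4 CPM in Arka Chaitra, against 5.01 and 6.08 CPM in Matar Ageta, so Arka Chaitra was the higher cultivar for it with and without heat. At the other end, a gene had 11.4 and 10.9 CPM in the heat columns of Arka Chaitra, against 77.1 and 101 CPM in those of Matar Ageta. Its control columns held 1.31 and 0.907 CPM in Arka Chaitra, against 92.0 and 97.0 CPM in Matar Ageta.

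The genes differed among themselves by how much was present in the Arka Chaitra control. In 58 genes both control columns were under 1, in 89 the higher one was between 1 and 5, and in 79 it was 5 or more. The first group had a median of 12.9 CPM in Arka Chaitra after heat and 0 CPM in its control, against 18.7 CPM after heat and 19.4 CPM in the control of Matar Ageta. After heat these genes stood at a median of 0.722 times Matar Ageta, and 14 of 58 were at least 2-fold below it and 2 at least 2-fold above. The middle group had 12.3 CPM in Arka Chaitra after heat and 2.14 CPM in its control, against 11.7 and 11.5 CPM in Matar Ageta. Its median after heat was 1.02 times Matar Ageta. The third group had 45.1 CPM in Arka Chaitra after heat and 11.05 CPM in its control, against 30.3 CPM after heat and 25.8 CPM in the control of Matar Ageta. These genes stood at a median of 1.42 times Matar Ageta after heat, with 19 of 79 at least 2-fold above it and 2 at least 2-fold below. The groups were cut by the values of the rule, so they are a description.

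An assembly can hold a gene as several entries under 1 cluster number, and reads can be divided among them. The 226 genes fell in 223 clusters of 69607, and 3 clusters held 2 of them. Members in different clusters could also have identical values. Those in clusters 15851 and 15856 had the same values in every column. So did those in clusters 61204 and 61218, and those in clusters 35933 and 35938. Whether such pairs are separate genes was not tested, and all counts here treat them as separate. A cluster with no other entry held 120 genes (53.1%), against 40.3% of the comparison genes. With all entries of a cluster summed, the heat level in Arka Chaitra was at least 2-fold above the control for 217 of 226 genes (96.0%), against 2.24% of the comparison genes. For the 106 genes in clusters with other entries it was so for 97 (91.5%), against 2.59% of such comparison genes. These shares follow largely from the rule, since the member is part of the sum. For the 106 genes the median ratio was 4.57 for the entry and 3.54 for the cluster sum. The entry made up a median of 94.3% of its cluster after heat. Summed over a cluster, the Matar Ageta ratio was within 0.67 to 1.5 for 219 genes (96.9%), near the 97.5% of the comparison genes, and the rule sets most of both shares.

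For 100 genes the cluster held other entries and no other member, and the rule did not use those entries. They reached a mean of 5 in either Arka Chaitra library for 27 of the 100 genes. Of these 27, the other entries were at least 2-fold higher after heat for 7 (25.9%), against 21.7% for the comparison genes, and at least 2-fold lower for 2 (7.41%), against 8.77%. Both shares were near those of the comparison genes.

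Along the cluster numbers, divided into 70 windows of 1000, 7 windows held none of the 226 genes, 40 held 1 to 3 and the fullest held 15. The fullest windows are named because of their counts, with no test. Window 50000 to 50999 held 15 members, or 5.84% of its genes that met the Matar Ageta criterion, against 1.21% over all windows. Window 32000 to 32999 held 13 (4.66%) and window 55000 to 55999 held 11 (4.33%). Of the genes that met every criterion except the fold in Arka Chaitra, members were 7.14%, 6.88% and 8.66% in these windows, against 2.01% over all. The order of the shares thus depends on the base. What the numbers stand for on the chromosomes is not stated in the sources used here.

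The windows differed in what became of the genes that met the Arka Chaitra criterion. In window 6000 to 6999, 63 genes met it and 1 was a member, since 57 fell below the limit of 2 in Matar Ageta. In window 55000 to 55999, 14 genes met it and 11 were members, with 2 below the limit. In windows of 5000, members made up 10.3% and 11.04% of such genes among the lowest 10000 cluster numbers, and 34.9% and 39.5% from 60000 upwards. Between these the share followed no steady course: it was 31.6% at 15000 to 19999, 12.8% at 20000 to 24999, 7 of 70 genes at 40000 to 44999 and 33.0% at 50000 to 54999.

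**Figure D5:**
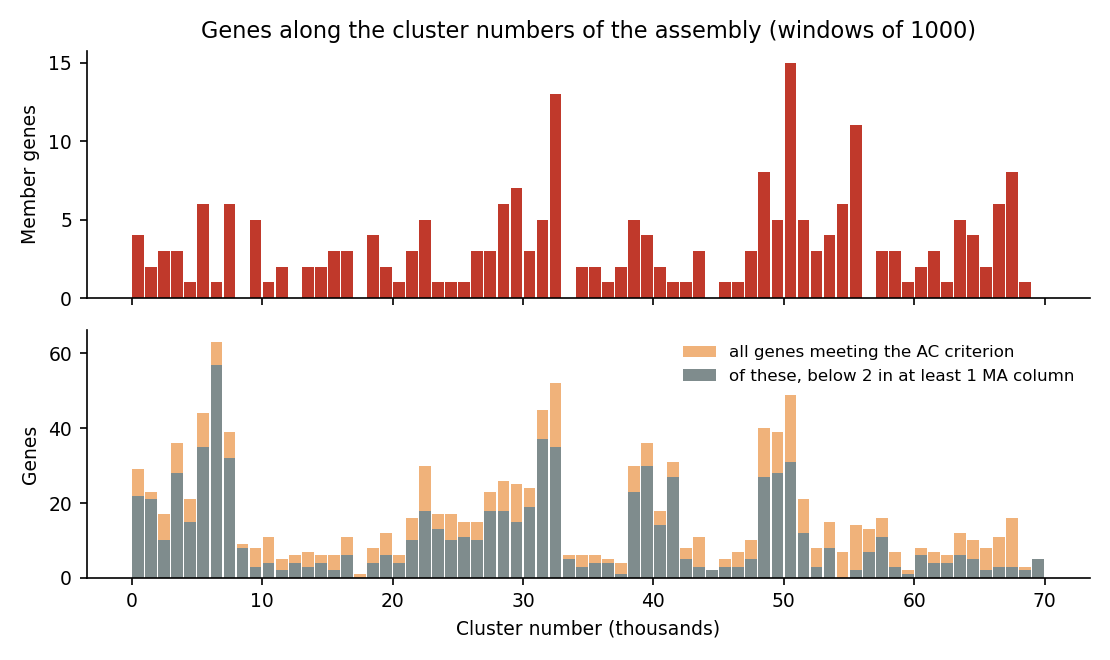
Number of member genes in windows of 1000 cluster numbers (upper panel) and number of all genes that met the Arka Chaitra (AC) criterion, with those under the Matar Ageta (MA) limit in grey (lower panel). The fullest window for members, 50000 to 50999, holds 15, while the highest bar below, 6000 to 6999, holds 63 genes of which 57 are grey.

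Nearby entries other than members were mostly not higher after heat. Members were left out of the near and the farther genes, so the low shares follow in part from the rule. Among genes that met the Matar Ageta criterion, reached 5 CPM in either Arka Chaitra library and lay within 5 cluster numbers of a member, 21 of 449 (4.68%) were at least 2-fold higher after heat. Farther away the share was 2.12%. At least 2-fold lower were 6.68% of the near genes and 4.99% of the farther ones. Within 20 cluster numbers, 3.24% were at least 2-fold higher. The densest stretches of 100 cluster numbers began at 50030 and 55093, with 7 members each, and at 52986 with 6. Of the other measured genes there, with the members left out, 1 of 29, 2 of 26 and 1 of 16 were at least 2-fold higher. The stretches were chosen for their members, so these counts do not show how often genes there rose. In the first of these stretches the members had a median of 1.19 times Matar Ageta after heat and 0.248 times in the control. In the second the median ratios were 0.494 after heat and 0.0664 in the control, and after heat the single genes ran from 0.283 to 5.72 times Matar Ageta.

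The same rule can be turned round for comparison. With the rule turned to a fall, 323 genes were lower after heat in Arka Chaitra and steady in Matar Ageta, against the 226 that were higher. Before the Matar Ageta criterion the order was the other way. There 853 genes met the fall criterion in Arka Chaitra and 1175 met the rise criterion. With the cultivars exchanged, 35 genes were higher after heat in Matar Ageta and steady in Arka Chaitra, out of 294 that met the rise criterion in Matar Ageta. All these sets use the same libraries. Each rule sets its floors on other columns, and the number of genes that could have met the turned rules is not given here. The counts alone therefore do not compare the responses of the cultivars. Among the 323 genes, Arka Chaitra stood at a median of 0.323 times Matar Ageta after heat and 1.04 times in the control. Among the 35 genes the raised cultivar, Matar Ageta, was low in its control, with Arka Chaitra at a median of 0.655 times Matar Ageta after heat and 1.93 times in the control.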

How the data were processed

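RNA from unopened buds was sequenced in 4 samples. A SMARTER mRNA kit was used, per the labels' protocols. The submitters' processing notes list RSEM, STAR, Bowtie2, FastQC and DESeq2 without version or role, and the genome build is not given in the sources used here. For each cultivar the authors deposited estimated counts per assembled gene, which are not whole numbers and not normalized. They also deposited a signal marked TMM, which is the deposited count times 1 constant per column, scaled separately per cultivar, with no length term. Reads that fit several entries are divided among them, and 0 does not show silence.

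The rule was applied to the deposited signal. Levels between cultivars used CPM with TMM factors over all 8 columns (edgeR 4.0.16, R 4.3.3), means of 2 columns and a constant of 1. Counting intervals are exact (Clopper-Pearson, 95%) on rounded sums. With 1 sample a group no test was run. The rule was run on simulated data, but no result of that run is given here. It therefore gives no error rate for the rule on these libraries. DESeq2 1.42.0 size factors, other constants, limits and columns were alternatives. At most 2 identifiers are printed, those with the largest ratio and the highest heated level. Genes shown as extremes, dense stretches and neighbours were chosen after their values were seen. The members and all choices were made with earlier results of these data known. Gene lists by product could not be used, because 0 identifiers matched a name.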

Additional observations from a re-analysis of the deposited data

Results flagged for a closer look

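TRINITY_GG_66468_c0_g1 was higher in both heat columns of Arka Chaitra and lower in both heat columns of Matar Ageta than in the control columns of the same cultivar, with a Matar Ageta ratio of 0.696. It passed as steady because the lower limit was 0.67. In all, 30 of the 226 genes had both Matar Ageta heat columns below both control columns while Arka Chaitra was higher after heat. That is 13.3% of them, a smaller share than the 19.3% of the comparison genes whose Matar Ageta columns had this order. These columns belong to 1 sample per group, and the difference between the 2 cultivars was not tested.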

How the results depend on the processing

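Of 55 alternatives, 45 stayed within 1.5 times of the reported value. The number of genes that met the rule was 126 at 3-fold, 583 at 1.5-fold, 482 with means of the columns and 35 with the cultivars exchanged, the last chosen after seeing the data. Leaving out each column in turn gave 204 to 516 genes. The median ratio of heat to control then ran from 4.34 to 4.92 in Arka Chaitra and from 0.939 to 1.06 in Matar Ageta. The median level of Arka Chaitra over Matar Ageta ran from 0.951 to 1.18 after heat, so its side of 1 is not settled, and from 0.195 to 0.242 in the control. Cluster sums without the member itself were at least 2-fold higher for 28 genes of the 106 in clusters with another entry, in place of 217 of 226 with it; in 3 clusters the other entries include a member. The Matar Ageta columns lay within 1.5-fold for 80 genes (35.4%, against 51.6% of the comparison genes) in place of 153 within 2-fold. The largest share of members among the genes of a window that met the Matar Ageta criterion was 2.61% with windows of 5000, in place of 5.84%. Over 21907 genes with at least 1 CPM in every column, the median log2 ratio of Arka Chaitra to Matar Ageta was -0.02 after heat and -0.07 in the control with TMM factors, and 0.11 and 0.05 with DESeq2 size factors. Of the members, 223, 220 and 219 still met the rule on CPM with TMM factors, unscaled CPM and DESeq2 size factors. No paired analysis was possible because the groups compared share fewer than 2 replicate numbers and each has 1 sample.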

Other observations

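Of the 3 clusters that held 2 members each, the entries of 1 cluster differed sharply in the control. Its first entry had scaled counts of 149 and 143 in the Arka Chaitra heat columns, against 0 and 0.260 in the control columns. Its second entry had 91.8 and 77.1 in the heat columns, against 30.1 and 3.04 in the control columns. In Matar Ageta the second entry had 95.6 and 16.8 in the heat columns and 35.3 and 58.7 in the control columns, so the 2 columns of each library differed more for it than for the first entry.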
